A study of Rattus norvegicus with 6 samples.

Results

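The ubiquitin-specific protease genes were followed in rat nucleus pulposus cells, which fill the soft centre of each intervertebral disc, under cyclic tensile strain and in controls. Members were chosen by symbol: Usp followed by a digit, with Usp18 left out. The pattern took 51 of the 22573 rows used, and 50 remained without Usp18. Of these, 41 had a mean of at least 1 FPKM (fragments scaled by transcript length and library total) over the 6 libraries and were compared, and 9 did not. The filter used the mean level over both groups, so these levels are a description. All 41 had both group means above 1 FPKM. The lowest member inside the filter was Usp27x with a mean of 1.59 FPKM, and the nearest outside it was Usp35 with 0.893 FPKM. Usp6nl matched the name pattern although it encodes a GTPase-activating protein for Rab proteins and no protease. It was kept in the 41, and the counts of genes that rose or fell were the same without it.

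The 6 libraries were made from Sprague Dawley rat cells, 3 labelled cyclic tensile strain and 3 labelled control. The labels describe stretching on a Flexcell tension device with 18% elongation at 0.2 Hz for 24 h, but repeat this text for the controls, which were read as unstretched from their class label alone. No genetic change, drug or age was named for either group. Separate animals or cultures were not named for the replicates, so p-values measure the spread between these libraries, which may be technical.

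Summed FPKM lay between 308780 and 347508 per library, and the number of fragments behind them is unknown. The first principal component of all tested genes held 78.6% of the variance and separated strain from control libraries. Of 14 nucleus pulposus markers, 9 passed the filter and 7 of these were higher under strain. The marker sum was 11784 to 14047 FPKM in strain libraries and 4990 to 5372 FPKM in controls, most of it from Mgp. The notochordal genes T, Krt18 and Krt19 were at most 0.139 FPKM in any library, and the cartilage collagen gene Col2a1 was at most 1.41 FPKM. Krt8, another keratin gene of this list, was among the 7 higher. It had 8.34 ± 2.52 FPKM under strain and 4.19 ± 1.28 FPKM in controls (SD, n = 3 each). Macrophage and leukocyte markers summed to 21.1 to 24.4 FPKM in strain libraries and 17.8 to 25.0 FPKM in controls. Ptprc was at most 0.049 FPKM and Cd163 at 0, and 4 of these 12 genes passed the filter (1 higher, 2 lower). Of these 4, Cd14 had 13.4 to 16.1 FPKM over the libraries and was neither higher nor lower. Lyz2 was higher, with a mean of 3.30 FPKM under strain and 0.249 FPKM in controls. Adgre1 (1.31 and 3.71 FPKM) and Cd68 (0.633 and 1.53 FPKM, same order) were lower. Endothelial markers summed to 17.5 to 21.2 FPKM under strain and 13.6 to 14.6 FPKM in controls, with Cdh5, Emcn and Cldn5 at 0 and 1 of 12 genes, Eng, tested and higher. The part of these marker differences in the results was not tested. In bulk RNA, fewer cells of a type and less RNA per cell cannot be told apart.

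Ubiquitin-specific proteases are cysteine proteases that remove ubiquitin, or shorten ubiquitin chains, on proteins marked for degradation or for signalling. They form the largest family of deubiquitinases in mammals, and individual members act at the proteasome, on histones, on endosomal receptors, on mitochondria or on signalling proteins such as SMADs. Several need a partner protein for full activity, such as the WD-repeat protein WDR48 for USP1, USP12 and USP46. Close relatives within the family often share substrates.

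Among the 41 tested members, 13 were lower under strain and 1, Usp11, was higher (limma on log2(FPKM + 1), Benjamini-Hochberg adjusted p under 0.05 over 10180 genes). This was 31.7% lower and 2.44% higher, where 19.0% of all tested genes were lower and 16.4% higher. In either direction 14 members were called, 34.1% of the 41, close to the 35.4% of all tested genes. The median log2 fold change of the members was -0.22, and that of all tested genes -0.01. The fitted change was below 0 in 32 members, or 78.0%, against 51.6% of all tested genes. The strain and control libraries did not overlap in 22 members that were lower, which is 53.7% beside 28.0% of all tested genes, and in 1 that was higher, beside 24.0%.

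The count of 13 rested on all the libraries. It was 5 without control replicate 1, 6 without control replicate 2 and 8 without strain replicate 2. Without control replicate 1 the members lower were 12.2% and all genes lower 13.0%, and without control replicate 2 the shares were 14.6% and 15.3%, so in those fits the members' share was not above that of all genes. Usp31, Usp32, Usp25, Usp15 and Usp54 were lower, and Usp11 higher, in every one of the 13 or 14 alternative fits that tested them.

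**Figure D1:**
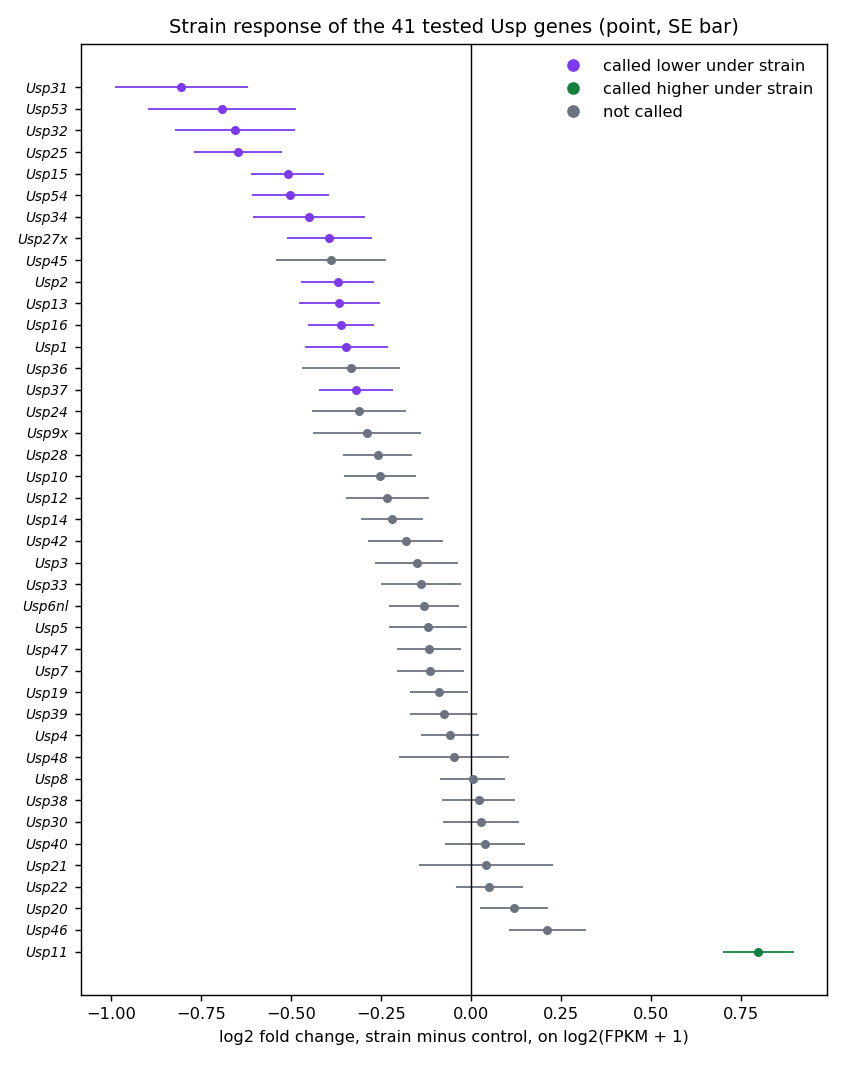
Fitted log2 fold change (strain minus control, on the log2(FPKM + 1) scale) with its standard error for the 41 tested Usp genes, sorted; colour marks the call at adjusted p under 0.05. The 13 genes called lower reach -0.81 in Usp31, and Usp11 at 0.80 lies apart from the other members.

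**Figure D2:**
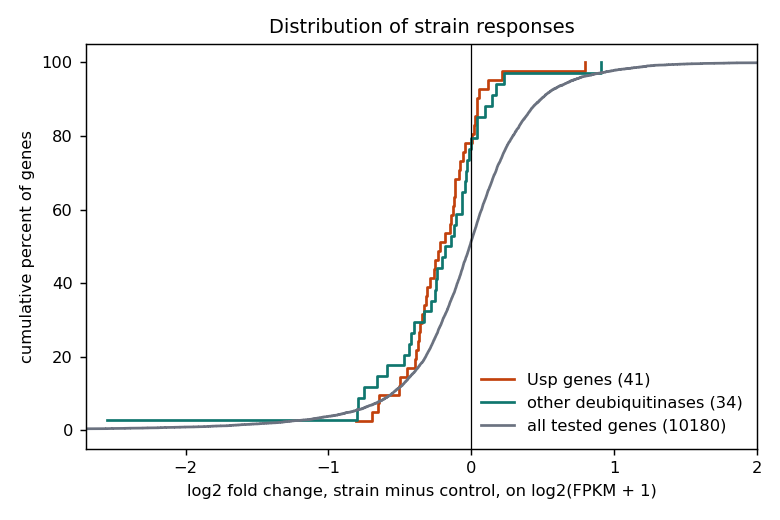
Cumulative percent of genes (vertical) against the fitted log2 fold change (horizontal). Curves are for the 41 Usp genes, 34 genes listed as other deubiquitinases and all 10180 tested genes. Genes past the ends of the axis are not drawn. The Usp curve crosses 0 at 78.0% and that of all tested genes at 51.6%.

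By level, Usp14, whose product works on the proteasome, was the most abundant member at a mean of 35.9 FPKM over the 6 libraries. Usp47 followed with 24.2, Usp16 with 20.9, Usp19 with 20.1 and Usp22 with 19.3 FPKM. Usp14 stood above Usp47 in each of the 6 libraries, while the ranges of Usp19 and Usp22 overlapped over the libraries. In all, 13 members had 10 FPKM or more and 7 of the tested members were under 3 FPKM. The median member had 6.96 FPKM, and the median of all tested genes was 8.03 FPKM. Summed over the 41 members, levels were 367, 362 and 326 FPKM in strain replicates 1 to 3, against 404, 415 and 408 FPKM in control replicates 1 to 3. Every strain sum was thus below every control sum, with strain replicate 3 the lowest.

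The largest fall was that of Usp31, whose product has been linked to NF-kB signalling in human cells. It had 2.11, 2.09 and 0.884 FPKM in strain replicates 1 to 3, against 3.47, 3.76 and 3.55 FPKM in control replicates 1 to 3. All strain values were below all control values, and strain replicate 3 was far below the other strain libraries. The fitted log2 fold change was -0.81 ± 0.18 (SE; adjusted p = 0.0097 by limma). Without strain replicate 3 it was -0.57 ± 0.09 (adjusted p = 0.0043 by limma).

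Usp32, a large membrane-associated member, had 9.54, 8.73 and 5.50 FPKM under strain, against 12.6, 12.6 and 13.2 FPKM in controls. The groups did not overlap, the controls lay close together, and strain replicate 3 was again the lowest. The log2 fold change was -0.66 ± 0.17 (SE; adjusted p = 0.015 by limma), and -0.44 ± 0.08 without strain replicate 3 (adjusted p = 0.0058 by limma).

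The promoters of these 2 genes are shown with that of Usp2 because they were the only called members whose RefSeq promoter window held the E-box CACGTG, the site bound by the clock factors CLOCK and BMAL1, and because Usp2 is the member best known as a clock output. Each window runs 5′ to 3′ on the gene's strand around 1 annotated transcript start of GRCr8, and other starts of these genes were not searched. The motif, which reads the same on both strands, is in capitals. The windows are chr1:185709415-185709714 (minus strand) for Usp31, chr10:70501990-70502289 (minus strand) for Usp32 and chr8:53310620-53310919 (plus strand) for Usp2.
Usp31: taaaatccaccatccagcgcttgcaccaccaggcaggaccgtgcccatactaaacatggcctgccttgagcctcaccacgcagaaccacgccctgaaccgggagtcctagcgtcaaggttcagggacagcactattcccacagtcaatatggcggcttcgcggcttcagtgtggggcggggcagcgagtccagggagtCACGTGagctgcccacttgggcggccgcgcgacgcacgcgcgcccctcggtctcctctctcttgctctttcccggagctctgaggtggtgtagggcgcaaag
Usp32: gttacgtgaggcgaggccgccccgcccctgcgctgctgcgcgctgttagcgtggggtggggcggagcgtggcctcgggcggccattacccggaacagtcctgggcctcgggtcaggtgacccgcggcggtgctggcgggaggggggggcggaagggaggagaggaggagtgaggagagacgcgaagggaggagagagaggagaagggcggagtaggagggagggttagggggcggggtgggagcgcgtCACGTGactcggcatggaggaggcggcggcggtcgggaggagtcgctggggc
Usp2: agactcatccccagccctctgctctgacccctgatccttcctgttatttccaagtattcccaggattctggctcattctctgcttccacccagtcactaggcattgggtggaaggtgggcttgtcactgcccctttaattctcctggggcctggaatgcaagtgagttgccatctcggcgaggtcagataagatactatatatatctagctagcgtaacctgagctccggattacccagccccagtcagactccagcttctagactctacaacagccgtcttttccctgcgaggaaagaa

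The E-box began 52 bases before the transcript start in Usp31 and 2 bases before it in Usp32, and these letters did not occur in the Usp2 window. Of 44 members matched to a promoter, 4 held it (9.09%; Usp31, Usp32, Usp4 and Usp6nl), and of all 33469 promoters 6.42% did. Among the 14 called members it was in 2. Usp4 and Usp6nl, which share the letters, were not called.

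Usp2 encodes a protease with PER1 and BMAL1 among its reported substrates, and its own transcript cycles in several mouse tissues. It had 3.58, 3.11 and 3.52 FPKM in strain replicates 1 to 3, against 4.70, 5.11 and 4.29 FPKM in control replicates 1 to 3. The groups did not overlap, and the mean was 1.38-fold lower under strain (3.40 ± 0.258 against 4.70 ± 0.409 FPKM, SD, n = 3 each). The log2 fold change was -0.37 ± 0.10 (SE; adjusted p = 0.021 by limma). The call was lost without control replicate 1, control replicate 2 or strain replicate 2, and with the replicate numbers as a block (adjusted p up to 0.079 by limma).

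The 8 tested members tied to cell signalling held the 1 rise and 3 of the falls. Of all tested genes, 16.4% were higher and 19.0% lower. Each member was counted under 1 role only. Usp11, an X-linked gene in mammals whose product acts in DNA repair and TGF-beta signalling, had 5.98, 6.74 and 7.0 FPKM under strain, against 3.55, 3.33 and 3.20 FPKM in controls. Each strain library was above each control library by a wide margin. The mean was 1.96-fold higher, with a log2 fold change of 0.80 ± 0.10 (SE; adjusted p = 0.00045 by limma).

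Usp15, which acts on SMAD proteins and TGF-beta receptors, moved the other way. It had 6.40, 6.52 and 5.82 FPKM under strain, against 9.89, 9.88 and 8.25 FPKM in controls. No strain library reached the lowest control, and the mean was 1.5-fold lower (log2 fold change -0.51 ± 0.10 SE; adjusted p = 0.0052 by limma).

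Usp4, Usp11 and Usp15 are close relatives, with the same domain layout. Usp4 had 12.8, 13.2 and 13.4 FPKM under strain, against 14.1, 13.5 and 13.5 FPKM in controls, and was not called (log2 fold change -0.06 ± 0.08 SE). Within each library the ratio of Usp11 to Usp15 was 0.934, 1.03 and 1.2 in strain replicates 1 to 3, against 0.358, 0.337 and 0.387 in control replicates 1 to 3. The 2 transcripts were therefore at similar levels under strain, while Usp15 was the more abundant in every control. Summed over the trio, levels were 25.2, 26.4 and 26.2 FPKM under strain and 27.6, 26.7 and 25.0 FPKM in controls, and those sums overlapped.

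Usp34, a very large protein that acts on axin in Wnt signalling, had 12.4, 12.2 and 7.86 FPKM under strain, against 14.6, 14.5 and 15.6 FPKM in controls. The groups did not overlap, but its call was at the threshold (log2 fold change -0.45 ± 0.16 SE; adjusted p = 0.0497 by limma) and was lost in 10 of 14 alternatives. Without strain replicate 3 the Usp34 change was smaller, at -0.26 ± 0.07 SE (adjusted p = 0.033 by limma). Usp9x, a large X-linked relative that acts on SMAD4 among others, had 17.6, 18.0 and 11.9 FPKM under strain, against 18.5, 18.5 and 21.0 FPKM in controls. Its strain values were all below its control values, yet it was not called (log2 fold change -0.29 ± 0.15 SE; adjusted p = 0.16 by limma). Without strain replicate 3 its log2 fold change was -0.11 ± 0.08 SE. Usp24, grouped here with Usp9x, had 8.51, 8.69 and 6.19 FPKM under strain and 9.06, 9.79 and 10.7 FPKM in controls and was not called either. Usp48, which has been tied to the NF-kB subunit RELA, had 2.68 ± 0.684 FPKM under strain and 2.77 ± 0.400 FPKM in controls (SD, n = 3 each).

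**Figure D3:**
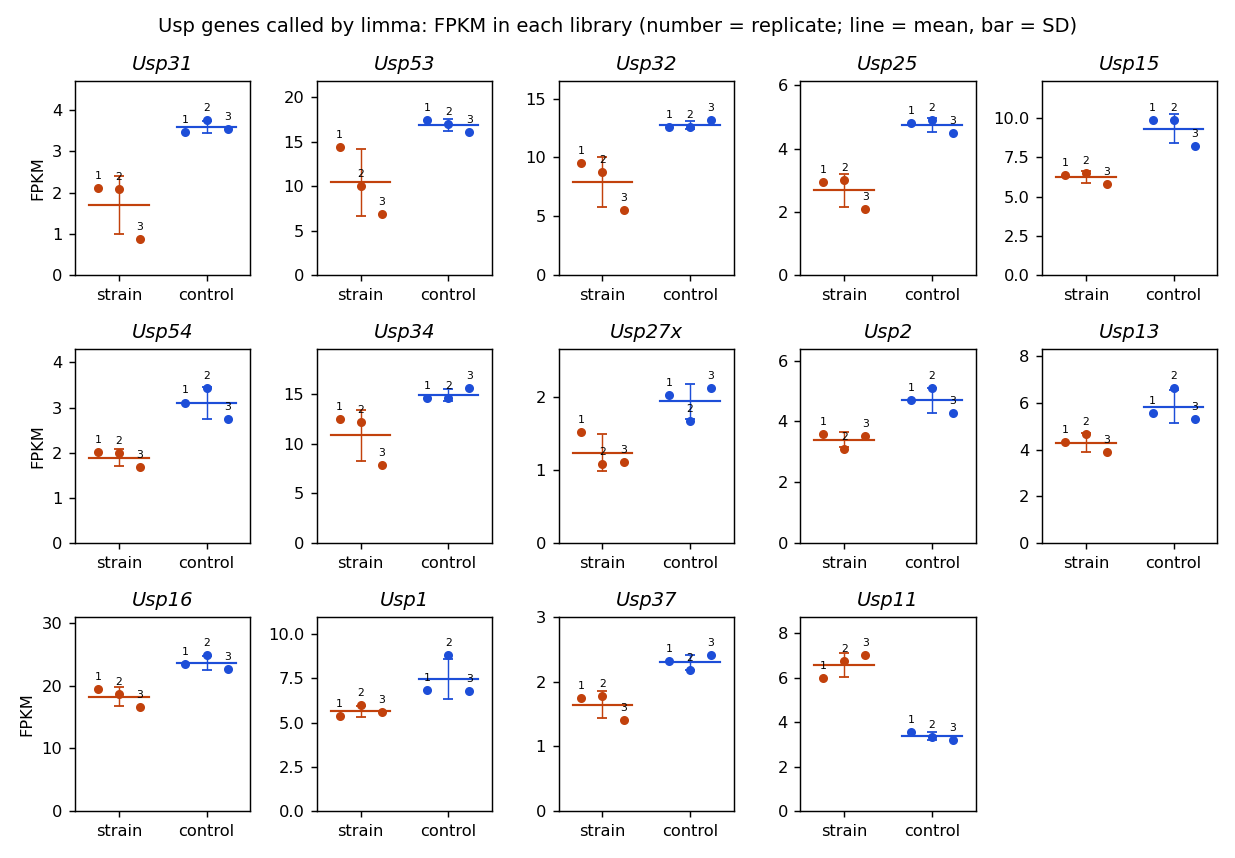
FPKM in each library (vertical axis from 0) for the 14 called Usp genes, strain left and control right; digits are replicate numbers, lines the group means and bars the SD. In all 14 panels the strain and control points do not overlap, which their choice as called genes favours. Of all tested genes, 28.0% do not overlap with strain lower and 24.0% with strain higher. Strain replicate 3 is the lowest strain point in Usp31, Usp53, Usp32, Usp25, Usp34, Usp54, Usp15, Usp16, Usp13 and Usp37.

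Of 8 tested members linked to membrane trafficking, receptors or the endoplasmic reticulum, Usp32 and Usp25 fell and none rose. A count of 2 in 8 is near the 19.0% of all tested genes that were lower. Usp25, which counteracts degradation of proteins from the endoplasmic reticulum, had 2.95, 3.0 and 2.09 FPKM under strain, against 4.80, 4.91 and 4.48 FPKM in controls. These groups were well apart, with a 1.77-fold lower mean under strain (log2 fold change -0.65 ± 0.12 SE; adjusted p = 0.0038 by limma).

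Its closest relative Usp28, which protects MYC from degradation in human cells, had 3.96, 3.40 and 3.5 FPKM under strain, against 4.63, 4.65 and 4.31 FPKM in controls. The groups did not overlap, but Usp28 was not called (log2 fold change -0.26 ± 0.10 SE; adjusted p = 0.064 by limma). In controls the pair stood at similar means, 4.73 FPKM for Usp25 and 4.53 FPKM for Usp28, and under strain Usp25 was at 2.68 FPKM beside 3.62 FPKM for Usp28.

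Usp8, the endosomal protease that acts on receptors sorted for degradation, had 13.2 ± 1.01 FPKM under strain and 13.1 ± 0.407 FPKM in controls (SD, n = 3 each), with a log2 fold change of 0.00 ± 0.09 SE. Usp19, anchored in the endoplasmic reticulum membrane, had 19.5 ± 0.601 FPKM under strain and 20.8 ± 0.890 FPKM in controls (SD, n = 3 each). Usp20 and Usp33 are relatives that bind the von Hippel-Lindau protein. Usp20 had 7.29 ± 0.525 FPKM under strain and 6.63 ± 0.351 FPKM in controls, and Usp33 had 12.4 ± 1.68 and 13.7 ± 0.871 FPKM in the same order (SD, n = 3 each). None of these 4 was called.

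Usp12 and Usp46, a pair of near relatives that share WDR48 as partner, had fitted changes of opposite sign. Usp46 had 7.80, 8.07 and 6.54 FPKM under strain, against 5.79, 6.66 and 6.48 FPKM in controls (log2 fold change 0.21 ± 0.11 SE; adjusted p = 0.15 by limma). Usp12 had 7.31, 6.12 and 5.79 FPKM under strain, against 6.99, 7.51 and 8.58 FPKM in controls (log2 fold change -0.23 ± 0.11 SE; adjusted p = 0.14 by limma). In both genes the groups overlapped. Without strain replicate 3, Usp46 was called higher (log2 fold change 0.29 ± 0.09 SE; adjusted p = 0.041 by limma).

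**Figure D4:**
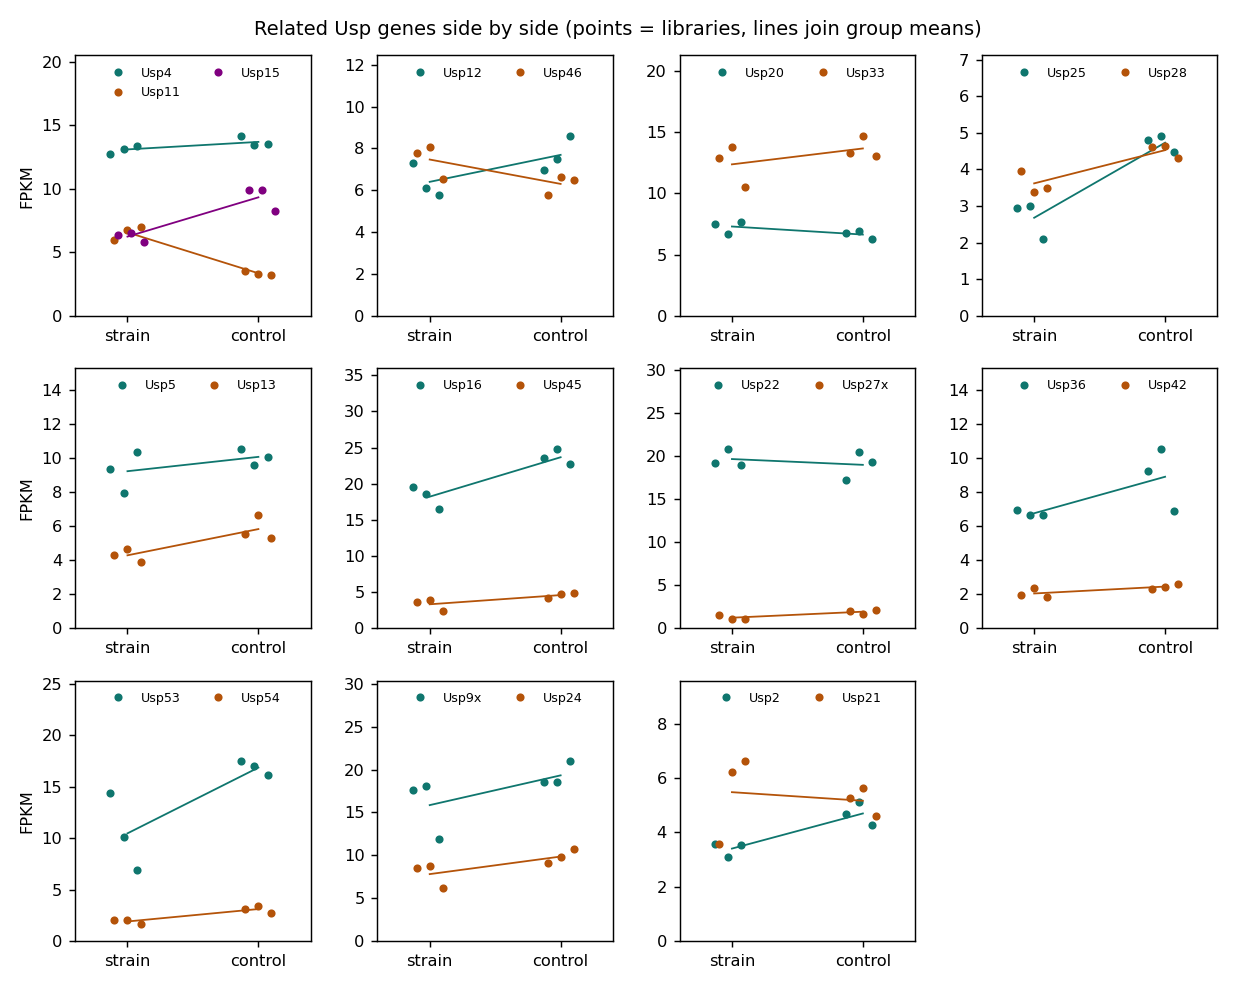
FPKM in each library (points, vertical axis from 0) and group means joined by lines for 11 groups of related Usp genes, strain left and control right. The lines of Usp11 and Usp15 slope in opposite directions, and Usp4 in the same panel lies near 13 FPKM in both groups.

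Among 8 tested members of DNA damage, p53 and cell cycle control, 2 fell and none rose. The falls were again near the 19.0% of all tested genes that were lower. Usp11, counted under signalling, was not among these 8. Usp1, which removes ubiquitin from FANCD2 and PCNA, had 5.35, 5.97 and 5.57 FPKM under strain, against 6.86, 8.80 and 6.78 FPKM in controls. Control replicate 2 stood above the others, and the call (log2 fold change -0.35 ± 0.11 SE; adjusted p = 0.042 by limma) was lost when any single library was left out. Usp37, a protease of S-phase entry, had 1.75, 1.78 and 1.4 FPKM under strain, against 2.32, 2.18 and 2.41 FPKM in controls. Its groups did not overlap (log2 fold change -0.32 ± 0.10 SE; adjusted p = 0.039 by limma), and its call too was lost when any single library was left out.

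Usp7, which acts on MDM2 and p53, had 17.6, 16.9 and 15.2 FPKM under strain, against 18.3, 16.9 and 18.8 FPKM in controls. Those ranges overlapped, with a log2 fold change of -0.11 ± 0.09 SE (adjusted p = 0.37 by limma). Usp10, a p53 protease bound by G3BP1, had 8.46, 8.23 and 9.31 FPKM under strain and 10.4, 11.6 and 9.62 FPKM in controls. It did not overlap between groups but was not called (adjusted p = 0.078 by limma), except without strain replicate 3 (adjusted p = 0.047 by limma). Usp47, a protease of DNA polymerase beta, had 23.2 ± 1.73 FPKM under strain and 25.2 ± 0.929 FPKM in controls (SD, n = 3 each). Usp45, tied to nucleotide excision repair, had 3.68, 3.96 and 2.36 FPKM under strain and 4.13, 4.74 and 4.94 FPKM in controls (adjusted p = 0.077 by limma). Usp42 was not called either, at 2.05 ± 0.265 FPKM under strain and 2.46 ± 0.155 FPKM in controls (SD, n = 3 each).

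Proteases of histone ubiquitin and chromatin had 2 falls and no rise among 5 tested members, where 19.0% of all tested genes were lower and 16.4% higher. Usp16, which acts on histone H2A, had 19.5, 18.6 and 16.5 FPKM under strain, against 23.5, 24.8 and 22.7 FPKM in controls. The gap between the groups was wider than the spread in either (log2 fold change -0.36 ± 0.09 SE; adjusted p = 0.015 by limma), and the call was lost without control replicate 1 or control replicate 2 (adjusted p up to 0.053 by limma).

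Usp22, the protease of the SAGA coactivator complex, had 19.2, 20.8 and 18.9 FPKM under strain, against 17.2, 20.4 and 19.3 FPKM in controls. Its values overlapped throughout, with a log2 fold change of 0.05 ± 0.09 SE. Its relative Usp27x had 1.52, 1.08 and 1.11 FPKM under strain, against 2.02, 1.66 and 2.13 FPKM in controls and was called lower (log2 fold change -0.39 ± 0.12 SE; adjusted p = 0.031 by limma). Its level is low, how reads shared with Usp22 and Usp51 were assigned is not given in the sources used here, and the call was lost in 4 of 13 alternatives. Usp3 and Usp21, both of which act on histone H2A, were not called. Usp3 had 7.86 ± 0.768 FPKM under strain and 8.86 ± 1.16 FPKM in controls (SD, n = 3 each). Usp21 had 3.58 FPKM in strain replicate 1 but 6.24 and 6.62 FPKM in strain replicates 2 and 3, around its control values of 5.25, 5.65 and 4.60 FPKM.

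Of the 3 members that recycle ubiquitin or act at the proteasome, Usp13 fell and the others were not called, where 19.0% of all tested genes were lower. Usp13 had 4.34, 4.67 and 3.88 FPKM under strain, against 5.57, 6.66 and 5.31 FPKM in controls, without overlap (log2 fold change -0.37 ± 0.11 SE; adjusted p = 0.032 by limma; lost in 5 of 14 alternatives). Usp5, its relative that takes apart free ubiquitin chains, had 9.40, 7.96 and 10.4 FPKM under strain, against 10.6, 9.61 and 10.1 FPKM in controls (log2 fold change -0.12 ± 0.11 SE). The Usp5 groups overlapped.

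Usp14 had 33.8, 33.1 and 32.3 FPKM under strain, against 39.3, 35.7 and 41.4 FPKM in controls. All strain values were below all control values, and the change was not called (log2 fold change -0.22 ± 0.09 SE; adjusted p = 0.075 by limma, 0.058 to 0.23 over 14 alternatives).

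Usp53 and Usp54 are relatives, of which USP53 has been placed at tight junctions. Both fell. Usp53 had 14.4, 10.1 and 6.90 FPKM under strain, against 17.5, 17.0 and 16.1 FPKM in controls. The strain libraries spread over more than the gap between the groups (log2 fold change -0.69 ± 0.21 SE; adjusted p = 0.029 by limma; lost in 6 of 14 alternatives). Without strain replicate 3 the Usp53 change was -0.45 ± 0.14 SE (adjusted p = 0.043 by limma). Usp54 had 2.01, 1.99 and 1.68 FPKM under strain, against 3.11, 3.44 and 2.75 FPKM in controls, with little spread (log2 fold change -0.50 ± 0.11 SE; adjusted p = 0.0070 by limma).

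Further members showed no call. Usp30, which opposes Parkin on the outer mitochondrial membrane, had 4.88, 5.29 and 5.99 FPKM under strain, against 4.84, 5.32 and 5.64 FPKM in controls, with a log2 fold change of 0.03 ± 0.11 SE. Usp36, a nucleolar protease, had 6.96, 6.67 and 6.67 FPKM under strain and 9.27, 10.6 and 6.90 FPKM in controls. Its control replicate 3 lay with the strain libraries, and without that library Usp36 was called lower (adjusted p = 0.013 by limma). Usp39, a spliceosome component of the family that lacks protease activity, had 6.15 ± 0.147 FPKM under strain and 6.55 ± 0.470 FPKM in controls (SD, n = 3 each). Usp38 had 6.01 ± 0.566 FPKM under strain and 5.90 ± 0.406 FPKM in controls, and Usp40 had 2.14 ± 0.198 and 2.06 ± 0.298 FPKM in the same order (SD, n = 3 each). Usp6nl, the member that is no protease, had 4.23 ± 0.331 FPKM under strain and 4.72 ± 0.249 FPKM in controls (SD, n = 3 each).

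In many members the third strain library lay below its group. It was the lowest of the 3 strain libraries in 25 of 41 members (61.0%), against 33.1% of all tested genes. It was the lowest of all 6 libraries in 23 of 41 members (56.1%), against 23.9% of all tested genes. The median difference of strain replicate 3 from the mean of the other strain libraries was -0.15 on the log2(FPKM + 1) scale over the members, 0.06 over all tested genes and 0.33 over 80 tested ribosomal protein genes. It was largest in Usp53 (-0.73), Usp31 (-0.72), Usp32 (-0.64), Usp34 (-0.59) and Usp9x (-0.55). Ribosomal protein genes took 10.7%, 10.8% and 12.4% of summed FPKM in strain replicates 1 to 3, and 8.67%, 8.44% and 8.51% in control replicates 1 to 3. The part of this library difference in the Usp values was not tested. Without strain replicate 3 the count was 10 members lower, of which 9 were among the 13. This was 24.4% of the members, beside 20.1% of all tested genes. The median log2 fold change of the members was then -0.17.

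**Figure D5:**
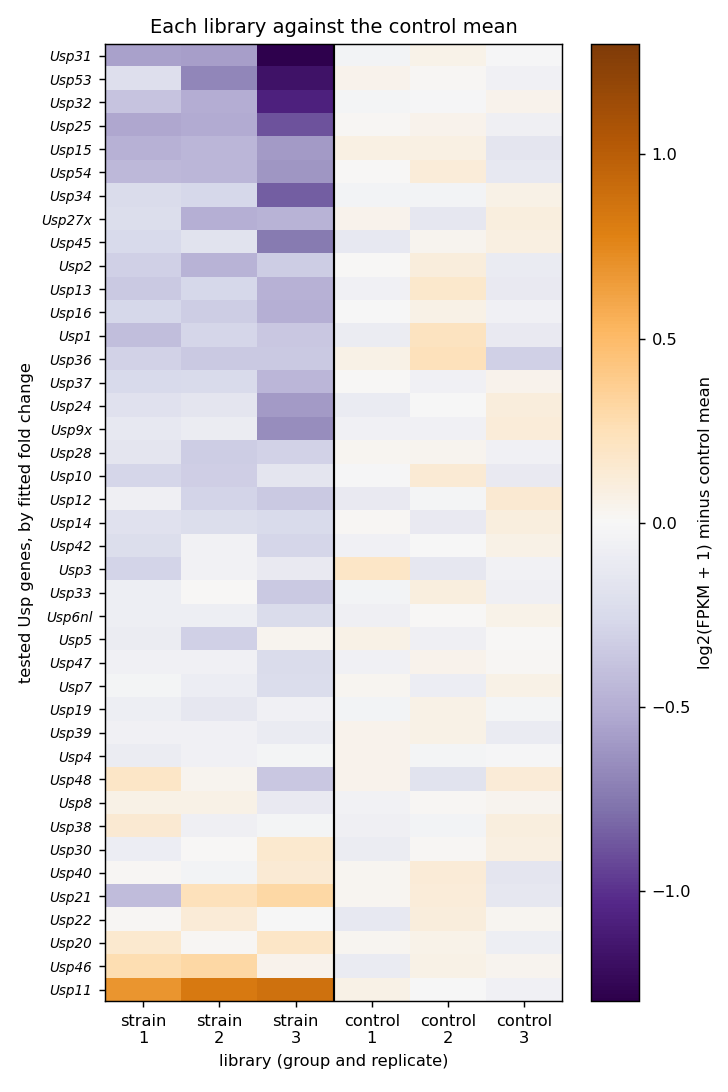
Difference of each library from the control mean on the log2(FPKM + 1) scale (colour) for the 41 tested Usp genes (rows, sorted by fitted fold change) in 3 strain and 3 control libraries (columns). Strain replicate 3 is the darkest purple column in Usp31, Usp53 and Usp32, and the Usp11 row is orange in each strain library.

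The 9 members under the filter were not among the genes tested. Usp35, a relative of Usp38 tied to mitochondria, had 0.888, 0.929 and 1.28 FPKM under strain, against 0.824, 0.673 and 0.762 FPKM in controls. Usp43 had 0.048, 0.049 and 0 FPKM under strain, against 0.589, 0.434 and 0.445 FPKM in controls, and was called lower in the fit without a filter (adjusted p = 0.0014 by limma). Usp49 had 0.398, 0.441 and 0.356 FPKM under strain, against 0.254, 0.309 and 0.275 FPKM in controls, and was not called in that fit (adjusted p = 0.10 by limma). Usp26, Usp29, Usp44 and Usp51 were below 0.05 FPKM in every library, and Usp50 and Usp9y were listed at 0 throughout.

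A list of other deubiquitinases, outside the name rule, gave 11 falls and 1 rise among 34 tested genes of 36 listed. Its median log2 fold change was -0.17, and 19.0% of all tested genes were lower and 16.4% higher. The list includes Pan2 and Uspl1, whose products are not established ubiquitin proteases, and neither was called. The falls numbered 7 without control replicate 1, where 13.0% of all tested genes were lower. They numbered 7 without strain replicate 2, where 15.1% were. The smallest p among the falls belonged to Tnfaip3, which encodes the NF-kB inhibitor A20. It had 6.13, 3.06 and 2.19 FPKM under strain, against 29.6, 26.1 and 21.3 FPKM in controls (adjusted p = 0.00050 by limma). Stambpl1, a metalloprotease of endosomal ubiquitin chains, had 4.26 ± 0.349 FPKM under strain and 7.85 ± 0.528 FPKM in controls (SD, n = 3 each). Cyld, a family member by its catalytic domain and another brake on NF-kB, had 10.5, 8.92 and 7.22 FPKM under strain, against 13.9, 15.3 and 14.5 FPKM in controls (adjusted p = 0.0041 by limma). The rise was Otub2, an ovarian tumour domain protease, with 4.52, 4.26 and 5.13 FPKM under strain, against 1.86, 2.64 and 1.57 FPKM in controls (adjusted p = 0.0014 by limma). These 4 were picked by the smallest p of the list, which favours groups that do not overlap, and none of them overlapped. Of all tested genes, 28.0% did not overlap with strain lower and 24.0% with strain higher.

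Partner proteins of the family had 4 falls and no rise among 13 tested genes, where 19.0% of all tested genes were lower and 16.4% higher. Without control replicate 1 there was 1 fall, beside 13.0% of all tested genes lower. Without strain replicate 2 there were 2 falls among the 13, beside 15.1% of all tested genes lower. Stam, the endosomal adaptor that binds USP8, had 11.2 ± 0.646 FPKM under strain and 22.1 ± 1.62 FPKM in controls (SD, n = 3 each; adjusted p = 0.00017 by limma), beside Usp8 itself, which was not called. The USP10 partner gene G3bp1 had 23.7 ± 0.566 FPKM under strain and 29.7 ± 1.03 FPKM in controls, the SAGA subunit gene Atxn7 2.26 ± 0.393 and 3.41 ± 0.013 FPKM, and the proteasome subunit gene Psmd2, the docking site of USP14, 64.5 ± 4.77 and 78.8 ± 4.22 FPKM in the same order (SD, n = 3 each). Wdr48 had 11.2 ± 0.223 FPKM under strain and 12.7 ± 0.348 FPKM in controls and was not called.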

How the data were processed

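RNA sequencing values of 3 strain and 3 control libraries were used as deposited, 1 file per library with 1 value per gene symbol. The authors' values were taken as FPKM, from their range and from the submitters' processing notes, where DESeq, Cufflinks, Cuffdiff 2.2.1, HISAT2 2.0.4 and cutadapt 1.9.3 are named without role. These notes give hg19 as build, which is human, while the symbols are rat. Fragment totals, strandedness and the handling of shared reads are not given in the sources used here.

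Of 22601 rows per file, 27 with date-like symbols and 1 malformed row were left out. The 10180 genes averaging 1 FPKM or more were tested across all genes with limma 3.58.1 in R 4.3.3, on log2(FPKM + 1), with a mean-variance trend, robust moderation and Benjamini-Hochberg adjustment over all of them. This scale understates changes of low genes. The fit was tested on simulated data. Folds are ratios of group means. Every called member is named. Values per library go to the 8 largest rises and falls among them, to 7 fixed members (Usp2, Usp7, Usp9x, Usp14, Usp15, Usp22 and Usp30) and to related genes; Usp1, Usp10, Usp35, Usp37, Usp43, Usp49 and Wdr48 were added after their values were seen. Members, roles and lists were chosen with earlier results of these data known. Promoters are RefSeq sequences of GRCr8, whose gene table matched all 50 members. A gene of the ubiquitin list is not reported here. Alternatives changed the pseudocount, filter, scaling, moderation, block or libraries.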

Additional observations from a re-analysis of the deposited data

How the results depend on the processing

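With 14 alternative fits, the median log2 fold change of the tested members stayed below 0, between -0.25 (pseudocount 0.1) and -0.15. The count of members lower was 13 in the reported fit. It was 10 to 12 with other pseudocounts, quantile normalization, median-ratio rescaling, plain moderation or the replicate block. Without a filter it was 10 among 48 members, and 9 of these 10 were among the 13. The count was 7 with a filter at 5 FPKM, which leaves 28 members, and 5 to 10 with single libraries left out. The share of members lower was 25.0% at 5 FPKM, beside 21.6% of all tested genes. With single libraries left out it was 12.2% to 24.4%, beside 13.0% to 20.1% of all genes. In the other alternatives it was 20.8% to 29.3%, beside 12.6% to 18.9% of all genes. The count higher was 0 at 5 FPKM, where Usp11 is not tested, and 1 to 2 with single libraries left out. The median was -0.15 both without a filter and at 5 FPKM, and -0.24 to -0.17 with single libraries left out. Without Usp6nl the counts were 13 and 1. The list of other deubiquitinases had 7 to 10 genes lower with single libraries left out and 2 higher after quantile normalization. It had 0 higher at 5 FPKM, where Otub2 is not tested. Partner genes had 1 to 4 lower with single libraries left out. The list of ubiquitin and E1 genes had 1 lower and 0 higher of 6 tested in the reported fit. Of all tested genes, 19.0% were lower and 16.4% higher in that fit. The list kept 1 lower in each alternative, and had 0 to 1 higher with single libraries left out. It had 1 higher without a filter and 1 after quantile normalization, which need not be the same gene. Among single members, the fitted change of Usp22 ran from -0.015 to 0.10 and that of Usp30 from -0.041 to 0.083 with single libraries left out. The cause of these shifts was not tested, beyond the fewer genes or libraries by construction.

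Deviations of same-numbered libraries correlated at 0.033, 0.11 and -0.12, and those of differently numbered libraries at -0.21 to 0.12. With 3 libraries per group these values cannot decide whether same-numbered libraries were paired. With the replicate block 10 members were lower and 1 higher. FPKM keep no depth, so counting error is unknown.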
